A study of Mus musculus with 12 samples.

Results

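The regions described here are the loci of 8 transcription factors of the T lineage in mouse thymocytes: Bcl11b, Gata3, Tcf7, Ets1, Runx1, Myb, Ikzf1 and Satb1. Each locus is a fixed mm9 window around the gene, and its members are all deposited ChIP-seq peaks that share at least 1 bp with that window. Peaks were not assigned to genes, and a window may hold parts of neighbouring genes. The windows span 1450 kb together, and 54 of the 21883 peaks in the 7 lists fall in them. Of these 54, 34 are floxed H3K9ac/K27ac peaks, 15 are Lck-Cre H3K9ac/K27ac peaks and 2 are floxed ZFAT peaks, and the B6 ZFAT library gives 2 peaks with input as the control and 1 with IgG. The floxed H3K9me3 list and the Lck-Cre ZFAT list have no peak in any of the 8 windows.

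Chromatin came from thymocytes of mice aged 4 to 5 weeks, and each ChIP group is a single library, so no comparison has a replicate check. Floxed animals (Zfatf/f) carry recombination sites in the Zfat gene, and no Cre is named for them. Lck-Cre animals (Zfatf/f-LckCre) carry the same floxed allele together with Cre driven by Lck sequences; the labels do not say which Lck promoter was used, and how much of the gene was removed was not measured in these lists. For B6 animals (C57BL/6) neither is named. ZFAT is a nuclear zinc-finger protein; H3K9me3 is a histone mark of silenced chromatin, and the H3K9ac/K27ac antibody reads acetylation of histone H3 at lysines found at active promoters and enhancers. The number of animals behind each library is not stated. Whether the cells carry the marks of thymocytes was not checked, because gene models of mm9 were not used here.

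T cell development in the thymus is steered by transcription factors that switch on in sequence. Notch signals in early progenitors induce Tcf7, which encodes TCF-1, and Gata3; Bcl11b follows at the point where cells commit to the T lineage. Runx1, Ets1, Myb and Ikzf1, which encodes Ikaros, act from earlier blood progenitors onward and bind together at many T cell enhancers, and Satb1 encodes a chromatin organiser that is abundant in thymocytes. Acetylated histones are found at promoters and enhancers in use, so acetylation peaks point to stretches of a locus that may be active. Whether these stretches were active was not tested here.

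The 250 bases that precede the annotated start are shown for the 3 members with exactly 1 promoter entry in the RefSeq table, of the 7 members that have any, because 2 of these, Bcl11b and Gata3, are the loci with ZFAT peaks in the B6 library. Positions of these promoters are in GRCm38.p6 on the minus strand and cannot be set against the mm9 peak positions given elsewhere. Capitals mark matches, on either strand, to short strings known from the binding sites of factor families in this set. The string TGTGGT stands for the RUNX family, which includes Runx1. The string AGATAA stands for the GATA family, which includes Gata3. The string CTTTGA stands for the TCF/LEF family, which includes Tcf7. The string GGAAGT stands for the ETS family, which includes Ets1.
Bcl11b, chr12:108003415-108003664: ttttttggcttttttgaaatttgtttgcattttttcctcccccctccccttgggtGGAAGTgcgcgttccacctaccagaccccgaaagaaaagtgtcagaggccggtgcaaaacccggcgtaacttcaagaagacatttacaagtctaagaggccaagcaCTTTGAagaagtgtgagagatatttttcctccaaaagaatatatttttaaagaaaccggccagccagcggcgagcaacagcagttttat
Gata3, chr2:9878601-9878850: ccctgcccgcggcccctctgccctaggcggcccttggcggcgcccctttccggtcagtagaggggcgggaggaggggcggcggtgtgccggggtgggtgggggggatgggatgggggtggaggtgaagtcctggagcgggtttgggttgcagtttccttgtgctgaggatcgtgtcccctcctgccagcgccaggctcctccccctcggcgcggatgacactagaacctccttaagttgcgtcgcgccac
Myb, chr10:21160985-21161234: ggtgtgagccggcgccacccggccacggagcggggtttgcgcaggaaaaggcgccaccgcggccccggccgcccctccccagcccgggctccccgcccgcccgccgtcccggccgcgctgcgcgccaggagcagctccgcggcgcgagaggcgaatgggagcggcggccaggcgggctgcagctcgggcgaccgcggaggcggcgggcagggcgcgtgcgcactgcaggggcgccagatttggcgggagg
The Bcl11b sequence held 1 match to the TCF/LEF letters and 1 to the ETS letters, and those of Gata3 and Myb held no match to any of the 4 strings. Among all 32851 promoter entries, taken over the same 250 bases, 13.8% held the TCF/LEF letters, 19.7% the ETS letters, 14% the RUNX letters and 9.99% the GATA letters. Base composition differed widely between the 3 genes. The Myb promoter was 81.2% G or C with 40 CpG pairs, that of Gata3 was 70% with 19, and that of Bcl11b was 44.8% with 9; the median over all entries was 6 CpG pairs. Such matches describe the letters only and do not show binding.

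Each peak is described by values of the authors' caller: a fold over local background, and a P score, the −log10 of the caller's p. Both values together fix how many fragments stack up at the summit of a peak, here called its pileup, and how high the control stood there; a whole pileup was found for all 54 members. Ranges after a pileup are 95% exact Poisson intervals, which hold counting error and nothing else. The inferred depths were about 2190000 fragments for floxed and 1340000 for Lck-Cre H3K9ac/K27ac, 1510000 for floxed ZFAT, 1350000 for Lck-Cre ZFAT, 632000 for B6 ZFAT and 2230000 for H3K9me3. The full lists hold 13016 floxed and 2225 Lck-Cre acetylation peaks, 1719 ZFAT peaks in floxed thymocytes and 108 in Lck-Cre, and 2388 H3K9me3 peaks. The B6 ZFAT library gave 2000 peaks with input as control and 427 with IgG.

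Acetylation was found at all 8 loci in floxed thymocytes. The 34 floxed peaks correspond to 2.34 peaks per 100 kb of window, against 0.70 per 100 kb of effective genome for the whole list; spreading the list evenly would have put 10.1 peaks in the windows. The 15 Lck-Cre peaks lay at 7 loci, where an even spread gives 1.73. The windows were chosen around genes, so this describes genic stretches and is no test. Peaks at the loci had a median fold of 11.2 and a median P score of 35.9, beside 8.62 and 25.9 over all floxed peaks. A P score of at least 50 was reached by 13 of the 34 (38.2%, 95% exact binomial interval 22.2% to 56.4%), against a background of 21.2% over the list. Another acetylation peak lay within 2 kb of 15 of them (44.1%, 27.2% to 62.1%), against 29.6% over the list. At none of the 34 was the control background as high as 20 scaled fragments, and 4 rested on 10 fragments or fewer.

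The count per locus varied more than the length of the window. Bcl11b and Tcf7 had 8 floxed acetylation peaks each, Gata3, Ets1 and Myb had 4 each, and Runx1, Ikzf1 and Satb1 had 2 each. Tcf7 was the most densely marked, at 8 peaks per 100 kb, and Runx1, with the longest window at 330 kb, the most sparsely, at 0.61. Of the 3 loci with 2 peaks, Runx1 had a highest fold of 7.90 and a highest P score of 33.5, both under the highest at each other locus, while Ikzf1 and Satb1 held the 3 peaks longer than 1000 bp, and the peak of highest P score in the set lay at Ikzf1.

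**Figure D1:**
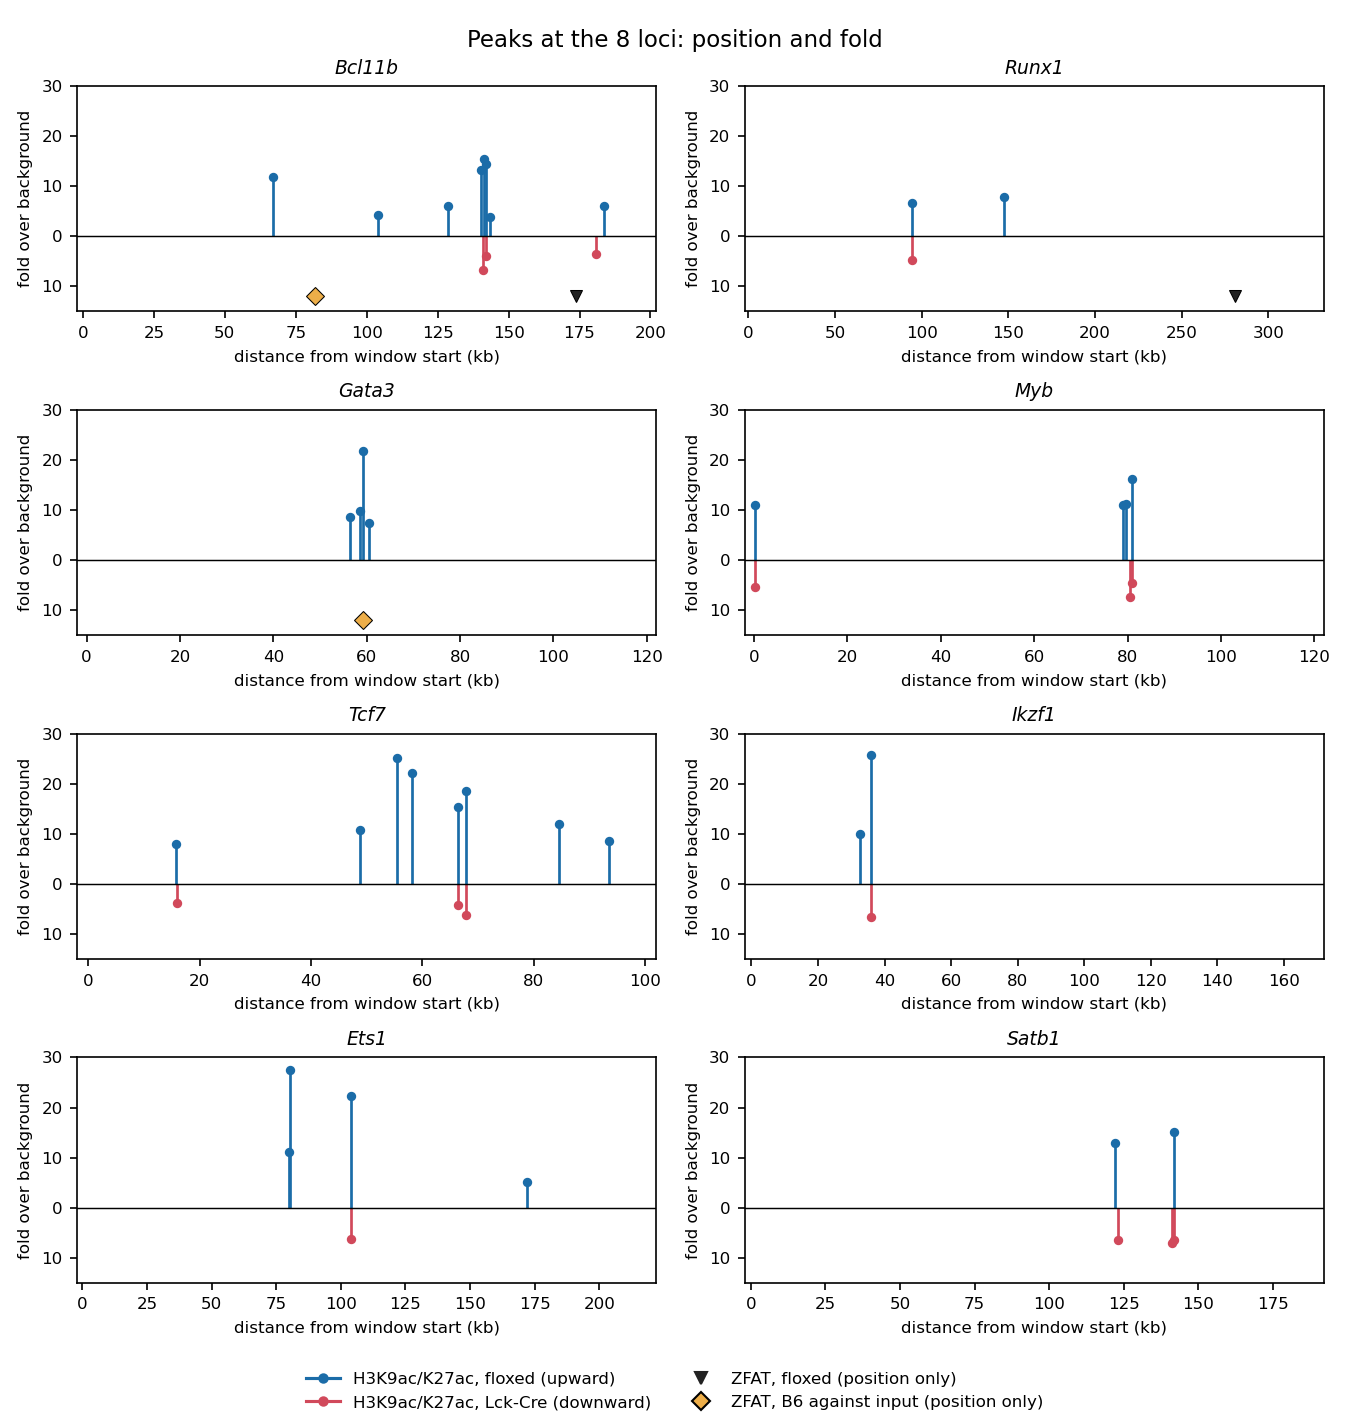
Position (kb from the start of each mm9 window) and fold over background of the acetylation peaks at the 8 loci; floxed peaks point up and Lck-Cre peaks down, and symbols mark the positions of ZFAT peaks without a height. Floxed peaks were present at all 8 loci, Lck-Cre peaks at 7, and no Lck-Cre peak was called at Gata3.

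The comparison of floxed with Lck-Cre thymocytes asks which acetylated stretches were also called when the floxed Zfat sequence could be removed. At the 8 loci an Lck-Cre peak overlapped 12 of 34 floxed peaks (35.3%, 19.7% to 53.5%), where the background over all 13016 floxed peaks was 12.3%. With the floxed list cut to its 2225 strongest peaks, the length of the Lck-Cre list, it was 9 of 12 (75%, 42.8% to 94.5%), where the background was 38.6%. The shared peaks were those of Bcl11b (2 of 8), Tcf7 (3 of 8), Ets1 (1 of 4), Runx1 (1 of 2), Myb (2 of 4), Ikzf1 (1 of 2) and Satb1 (2 of 2), and Gata3 had none of 4. At 6 of the 8 loci the floxed peak with the highest P score was also called in Lck-Cre, the exceptions being Gata3 and Runx1. These 8 peaks were picked by score and scored from 33.5 to 136. Over the list, 9.95% of peaks scoring 20 to 50 were shared, 31.7% from 50 to 100 and 63.5% at 100 or more. Conversely, a floxed peak was present at 14 of 15 Lck-Cre peaks (93.3%, 68.1% to 99.8%), where the background over the 2225 was 75%. Each of these shares compares 2 libraries of different depth and not the conditions, and the peaks of a locus share those libraries.

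The shared peaks were stronger and longer by their medians, with exceptions. Their median P score was 84.5, against 26.0 for the 22 that were not shared, and their median length 742.5 bp, against 210.5 bp. Over all floxed peaks the medians differed the same way, at 57.5 against 22.9 and 509.5 bp against 264 bp. At the loci the ranges overlapped: shared peaks went down to 161 bp and 12 fragments, and unshared ones reached 701 bp, 70 fragments and a P score of 73.3. Of the 9 floxed peaks at the loci that were at least 500 bp long, 8 were shared (88.9%, 51.8% to 99.7%), and the exception was at Runx1. Of the 25 shorter ones, 4 were shared (16%, 4.54% to 36.1%). Over the whole list the shares were 28.9% for peaks of at least 500 bp, under the interval of the loci, and 7.60% for shorter ones, within it. This length limit was chosen after the values were seen.

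**Figure D2:**
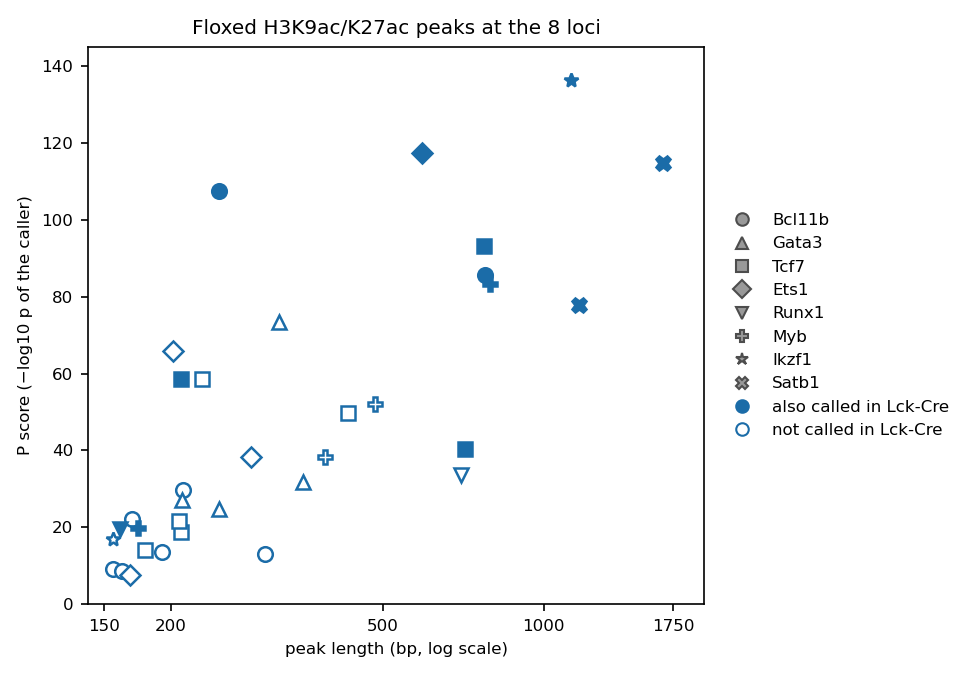
Length (bp, log scale) and P score (−log10 p of the caller) of the 34 floxed acetylation peaks, with a symbol for each locus; filled symbols were also called in Lck-Cre. All 4 peaks scoring 100 or higher are filled, and most peaks shorter than 500 bp are open.

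Because strong peaks recurred more often over the whole list as well, the shares were set side by side within ranges of P score. All 4 peaks at the loci with a score of 100 or more were shared (lower bound of the interval 39.8%), against 63.5% of 277 over the list. From 50 to 100 it was 5 of 9 (55.6%, 21.2% to 86.3%) against 31.7%, and from 20 to 50 it was 1 of 11 (9.09%, 0.23% to 41.3%) against 9.95%. Under 20 it was 2 of 10 (20%, 2.52% to 55.6%) against 2.41%. In the 3 upper ranges the share over the list lay within the interval of the loci, and in the lowest range it lay just under it. Both shared peaks of the lowest range, at Runx1 and Myb, had scores close to its upper limit, 19.5 and 19.7. Among the 2225 strongest floxed peaks as a whole, the share over the list, 38.6%, lay under the interval of the loci, 42.8% to 94.5%; within that cut the scores of the loci and the list were not matched.

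**Figure D3:**
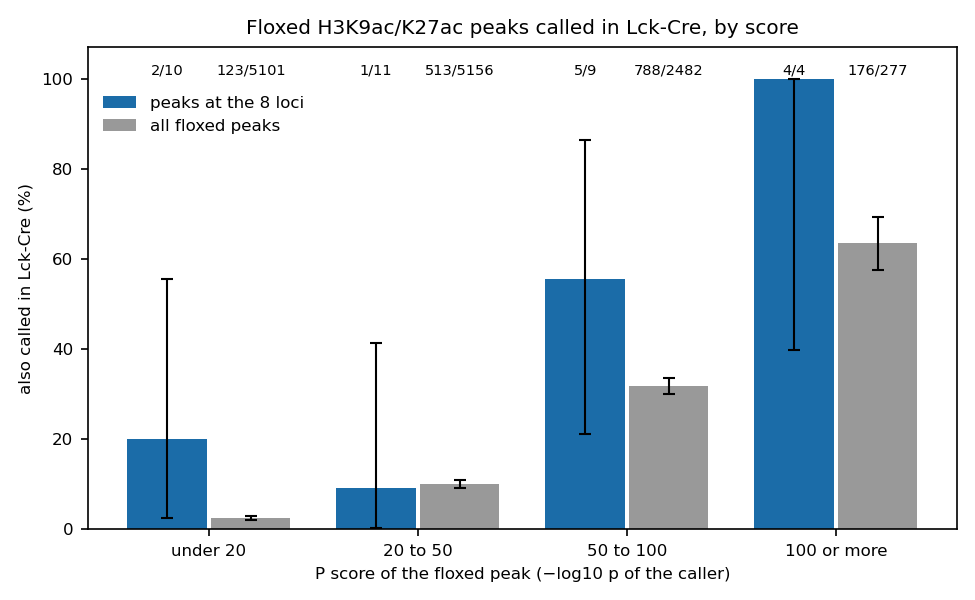
Share (%) of floxed acetylation peaks also called in Lck-Cre, by P score of the floxed peak, for the peaks at the 8 loci and for all floxed peaks; bars are shares, whiskers exact binomial 95% intervals, and the numbers above give shared peaks of all peaks. Shares rise with score over the whole list, and the intervals of the loci are wide.

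At the shared peaks the Lck-Cre signal was lower than the floxed signal beyond the difference in depth inferred for the libraries. Floxed pileups at the 12 peaks ran from 12 to 137 fragments and the highest overlapping Lck-Cre pileups from 5 to 36. Dividing the Lck-Cre pileup by the floxed one and correcting for the inferred depths gave a ratio that had a median of 0.42 and ranged from 0.30 to 0.68. Over all 1600 shared floxed peaks the median was 0.48, with an interquartile range of 0.41 to 0.58. At P scores of at least 50 the median was 0.42 for the 9 peaks at the loci and 0.45 for 964 over the list. The Lck-Cre pileup was the lower one at 12 of 12 peaks of the loci after scaling. It was also the lower one at all 964 list peaks with P scores of at least 50, where the highest ratio was 0.87. Over all 1600 shared list peaks the highest ratio was 2.45, so there it was not the lower one throughout. At the loci the Poisson intervals did not overlap at 9 peaks, a count not made over the list. They overlapped at the weakest peak of Myb, at the peak of Runx1 and at 1 of the Tcf7 peaks. With no second library the spread between replicates is unknown. A difference in how well the antibody enriched in the 2 libraries and a difference in acetylation cannot be told apart.

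**Figure D4:**
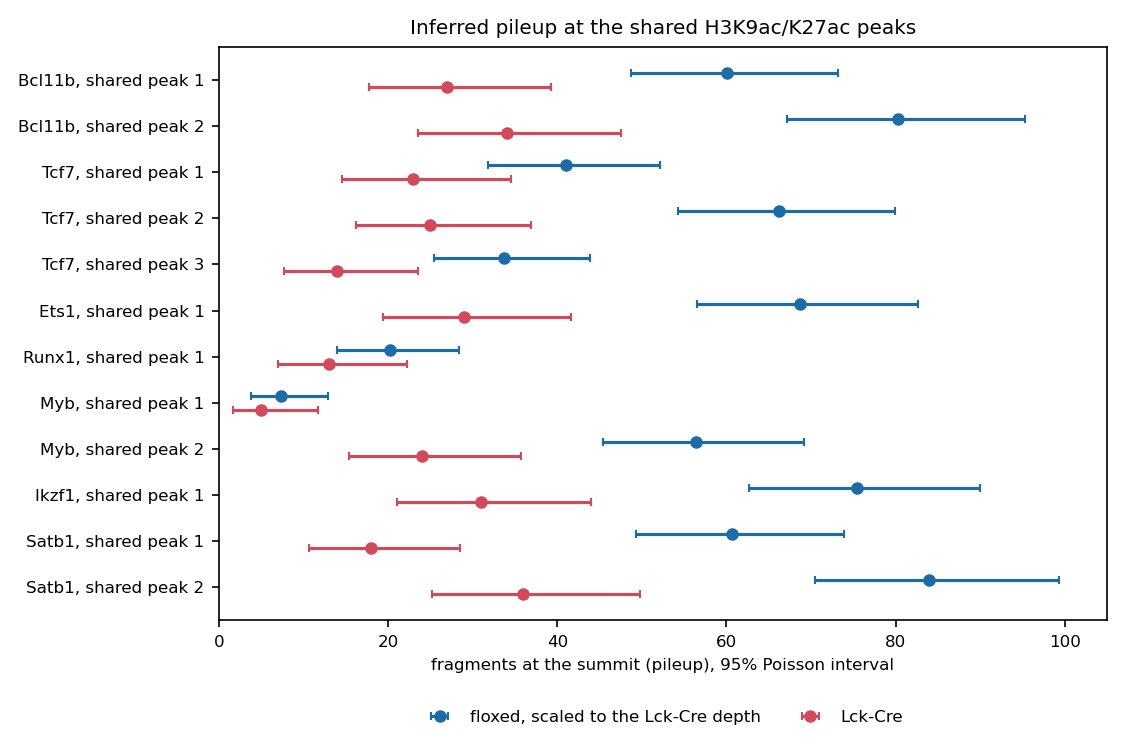
Inferred fragments at the summit of the 12 shared acetylation peaks, in locus order; floxed values are scaled to the inferred Lck-Cre depth, and whiskers are 95% exact Poisson intervals. Lck-Cre values lie to the left at all 12 peaks, with intervals apart at 9.

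Bcl11b encodes a zinc-finger factor required for T lineage commitment, and its acetylation formed a group of 4 peaks between 109240221 and 109243662 of chromosome 12 with 4 isolated peaks around it. The strongest, at 109242016 to 109242261, had a fold of 14.5 and a pileup of 131 (110 to 155) in floxed thymocytes. The overlapping Lck-Cre peak had a fold of 4.02 and a pileup of 34 (23.5 to 47.5), a scaled ratio of 0.42. Its neighbour, the longest at 775 bp (109240752 to 109241526), was also shared, with folds of 15.4 and 6.75 and pileups of 98 and 27. The outer peaks of the group were not called in Lck-Cre: that at 109240221 to 109240431 had a fold of 13.1 on 29 fragments, and that at 109243362 to 109243662 a fold of 3.77 on 41. The isolated peaks had folds from 4.16 to 11.9 on 6 to 37 fragments, and none was shared. The only Lck-Cre acetylation peak at any of the 8 loci without a floxed counterpart was also here, at 109280807 to 109280977, on 3 fragments (0.62 to 8.77), which is the lowest pileup in the Lck-Cre list.

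Gata3 encodes a zinc-finger factor needed from the earliest thymic stages and again for CD4 T cells. Its 4 floxed acetylation peaks lay within 4.33 kb on chromosome 2, the shortest span of the 8 loci after that of Ikzf1 (3.93 kb). The strongest, at 9799078 to 9799396, had a fold of 21.8, a P score of 73.3 and a pileup of 65 (50.2 to 82.8). The longest, at 9796244 to 9796597, had a fold of 8.54 on 48 fragments, and those at 9798516 to 9798725 and 9800331 to 9800576 had folds of 9.71 and 7.32 on 35 and 41. None was called in Lck-Cre, although at the Lck-Cre depth these floxed pileups would correspond to 21.5 to 39.8 fragments, above the median of 18 in the Lck-Cre list. A floxed peak with such a score was seldom called in Lck-Cre over the list as a whole, at 31.7% for scores from 50 to 100 and 9.95% from 20 to 50. The nearest Lck-Cre acetylation peak to the B6 ZFAT peak at this locus was 1295 kb away.

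Tcf7 carried 8 floxed acetylation peaks across 78.4 kb of chromosome 11. Its strongest and longest peak, at 52096239 to 52097012, had a fold of 15.4 and a pileup of 108 (88.6 to 130), and the Lck-Cre peak within it a fold of 4.13 and a pileup of 25 (16.2 to 36.9). The adjacent peak at 52097795 to 52098003 was shared with folds of 18.5 and 6.13 and pileups of 55 and 14, and its summits lay 1 bp apart. A distant peak at 52045263 to 52045973 was shared as well, at folds of 8.05 and 3.81. Whether this distant peak belongs to Tcf7 or to a neighbouring gene was not tested. In the RefSeq gene order of GRCm38.p6, the protein-coding neighbours of Tcf7 are Skp1 and Vdac1. The peaks with the highest folds at the locus were not among the shared ones. At 52085336 to 52085564 the fold was 25.0 on 41 fragments, and at 52088056 to 52088485 it was 22.1 on 36, over a background of 0.68 scaled fragments at each. The other 3 unshared peaks rested on 9 to 13 fragments.

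Ets1 encodes the founding member of the ETS family, which partners with RUNX proteins at T cell receptor enhancers. Of its 4 floxed peaks on chromosome 9, that at 32503311 to 32503901 had the highest score, with a fold of 22.3 and a pileup of 112 (92.2 to 135). It was shared with an Lck-Cre peak of fold 6.18 and pileup 29 (19.4 to 41.6), whose summit lay 4 bp away. The peak of highest fold in the whole set, 27.4 at 32480261 to 32480462 on 45 fragments, was not shared, and neither was its neighbour 327 bp away at 32479651 to 32479933, with a fold of 11.2 on 48. The remaining peak rested on 5 fragments.

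Runx1 encodes a DNA-binding subunit of core binding factor. It was the locus with the lowest scores among strongest peaks, with P scores of 33.5 and 19.5 at its 2 floxed peaks on chromosome 16. The longer, at 92697436 to 92698136, had a fold of 7.90 on 55 fragments (41.4 to 71.6) and was not called in Lck-Cre. The shorter, at 92644402 to 92644562, had a fold of 6.72 on 33 fragments and was shared, with an Lck-Cre fold of 4.78 on 13 (6.92 to 22.2). At Runx1 the weaker of the 2 floxed peaks was therefore the shared one, unlike at Ikzf1, which also had 1 of 2 shared. At Myb and Tcf7 too, some unshared peaks had a higher P score than a shared one. The shared Runx1 peak was the only shared peak of the set whose Lck-Cre partner was not wholly inside it.

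Myb encodes a factor that thymocytes need for survival during receptor gene rearrangement. Of its 4 floxed peaks on chromosome 10, 3 lay between 20878809 and 20881156. The strongest and longest, at 20880362 to 20881156, had a fold of 16.2 and a pileup of 92 (74.2 to 113). In Lck-Cre this stretch was called as 2 separate peaks 188 bp apart, with folds of 7.33 and 4.57 on 24 and 19 fragments. Its neighbours, at 20878809 to 20879291 with a fold of 11.1 on 70 fragments and at 20879470 to 20879859 with a fold of 11.2 on 48, were not called in Lck-Cre. The first of these held the most fragments of the 22 unshared peaks. The fourth Myb peak, at 20800024 to 20800197, was shared on only 12 and 5 fragments and lay 0.024 kb inside the edge of the window, so its place in the set depends on where that edge was drawn.

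Ikzf1 encodes Ikaros, a zinc-finger regulator of lymphoid development. Its main peak, at 11585358 to 11586480 of chromosome 11, had the highest P score of the set, 136, ranking 47 of 13016 in the floxed list, with a fold of 25.7 and a pileup of 123 (102 to 147). The Lck-Cre peak covered 91.9% of it, the largest share of a floxed peak at these loci, with a fold of 6.59 and a pileup of 31 (21.1 to 44.0). The other Ikzf1 peak, at 11582554 to 11582709, had a fold of 10.0 on 14 fragments and was not shared.

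Satb1 was the locus at which all floxed peaks were shared and the Lck-Cre list held more peaks than the floxed list, 3 against 2. The longest peak of the set, 1673 bp at 51970994 to 51972666 of chromosome 17, had a fold of 15.1 and a pileup of 137 (115 to 162). In Lck-Cre it was called as 2 peaks 229 bp apart, with folds of 7.04 and 6.36 on 23 and 36 fragments. The other, at 51951890 to 51953052, had a fold of 12.9 on 99 fragments, and the Lck-Cre peak within it a fold of 6.38 on 18 (10.7 to 28.4). Here the summits lay 920 bp apart and the scaled ratio, 0.30, was the lowest of the 12. The larger number of Lck-Cre peaks thus came from the division of a long floxed peak.

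Positions matched closely at most shared peaks. Among the 14 overlapping pairs, the summits lay within 150 bp, the fragment length, in 9, with a median distance of 29.5 bp. The Lck-Cre peak lay wholly inside the floxed peak in 13 of 14 and covered a median of 46.5% of it. The fold was lower in Lck-Cre in 14 of 14. Such counts were not made over the whole lists, which differ in the same direction. Their median lengths were 290 bp in floxed and 192 bp in Lck-Cre, and their median folds 8.62 and 4.86. A fold also depends on the control background, which had a median of 5.08 scaled fragments in floxed and 3.26 in Lck-Cre at these pairs. These medians stand at different depths, the inferred floxed depth being 1.63 times that of Lck-Cre. With the floxed background scaled to the Lck-Cre depth, the Lck-Cre background was the higher one at 8 of the 14 pairs. The headers of both lists do not name the control. In total, peaks covered 14353 bp of the windows in floxed and 5382 bp in Lck-Cre thymocytes.

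The 22 floxed peaks that were not called in Lck-Cre ranged from very small to substantial. Scaled to the Lck-Cre depth, their pileups ran from 3.06 to 42.9 fragments. Of these, 13 reached the Lck-Cre list's median pileup of 18, namely all 4 of Gata3, 2 each of Bcl11b, Tcf7, Ets1 and Myb, and 1 of Runx1. The other 9 lay under it, among them the unshared peak of Ikzf1. Over the whole list, 6471 of the 11416 unshared floxed peaks reached that median, a share close to that of the loci. Applying the scaled ratio of the shared peaks to unshared ones was not done, since shared peaks were selected by being called.

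ZFAT peaks at these loci were few, as an even spread of such short lists would also give. An even spread of the lists would have put 1.33 floxed and 1.55 B6 peaks called against input in the windows, and each list had 2. The exact Poisson interval of a count of 2 runs from 0.24 to 7.22, so these counts do not separate the loci from the genome. The floxed peaks lay at Bcl11b (109273576 to 109273736, fold 6.24, 6 fragments, 2.20 to 13.1) and at Runx1 (92830936 to 92831090, fold 5.35, 5 fragments, 1.62 to 11.7). Neither is a strong peak: they ranked 662 and 951 of 1719 by P score. Neither met a B6 peak, whether the control was input (background 8.26% of floxed ZFAT peaks) or IgG (5.29%), nor an Lck-Cre ZFAT peak (1.8%), nor floxed acetylation (25.8%). The Bcl11b peak lay 9.68 kb from the nearest floxed acetylation peak and 7.07 kb from the Lck-Cre acetylation peak of 3 fragments named above. The Runx1 peak lay 133 kb from the nearest floxed acetylation peak.

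The B6 peaks fell at other places. At Gata3 a B6 peak called against input, at 9799120 to 9799309, had a fold of 7.41 on 8 fragments (3.45 to 15.8) and lay wholly within the strongest floxed acetylation peak of the locus, with summits 49 bp apart. It was the only ZFAT peak at the 8 loci that met acetylation; over the list 19.2% of B6 peaks called against input did. It was not called against IgG, and the nearest floxed ZFAT peak was 2082 kb away. At Bcl11b a B6 peak at 109181735 to 109181887 had a fold of 4.76 on 4 fragments (1.09 to 10.2) and was called at the same position against both controls (background 14.5% of peaks called against input). Both calls use the same ChIP library and do not replicate each other. This peak lay 91.7 kb from the floxed ZFAT peak of the same locus. Thus no ZFAT peak at the 8 loci was found in more than 1 library, and all rested on 8 fragments or fewer.

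No floxed acetylation peak at the loci was overlapped by a floxed ZFAT peak (0 of 34, against a background of 3.43%; 3 counts of 34, taken as the limit that a count of 0 allows, are 8.82%, and the exact interval ends at 10.3%), and 1 was overlapped by a B6 peak (2.94%, 0.07% to 15.3%, against 2.96%). Both backgrounds lie within what these counts allow. Of the 22 acetylation peaks that were not called in Lck-Cre, the strongest one at Gata3 was thus the only one with a ZFAT peak of any list. The same count over all unshared floxed peaks was not made, so this does not set the 22 apart. That ZFAT peak rests on 8 fragments and was not called against IgG.

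H3K9me3 was not called in any of the 8 windows. With an even spread, 1.85 of the 2388 peaks would have fallen there, and the exact Poisson interval of a count of 0 reaches 3.69 peaks, so it does not separate these loci from the genome. Taken as 3 counts, the limit is 0.126% of the list. The nearest H3K9me3 peak was 114 kb outside the Bcl11b window, and for the other loci it was between 537 kb, at Satb1, and 4047 kb, at Myb. No Lck-Cre ZFAT peak was called in the windows either (3 counts, the limit taken for a count of 0, are 2.78% of 108 peaks), and the nearest lay 563 kb outside the Myb window.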

How the data were processed

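The authors deposited peak lists in mm9, called per library. Per the submitters' processing notes, MACS was run for the B6 samples (version not stated), and CASAVA 1.8.1, Trimmomatic 0.22 and SAMtools 0.1.18 for all samples; no aligner is named there. All lists share a fragment length of 150 bp and a p threshold of 1e-05, per the file headers. The deposited P and Q scores are read as −log10 of p-values, since P scores begin at that threshold, and the deposited fold is a ratio of ChIP to local background; the Q score was not used. Samples were grouped by title; the 6 input and IgG samples were not analysed here.

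Members and lists were chosen with earlier results of these data known. All 8 loci are described, each with its strongest and longest floxed peak, strongest unshared and strongest Lck-Cre peak, and every ZFAT peak. Overlap means at least 1 bp, on 1-based closed coordinates. Pileup and background solve fold = (pileup + 1)/(background + 1) together with a Poisson tail equal to p, within 0.0001 on the P score. The solving step was tested on data simulated with the same formula, which cannot show whether the caller used it. Depth is the lowest background of a list times genome size over fragment length. Shares have exact Clopper-Pearson 95% intervals, for counting error only; for a count of 0, 3 counts of the total are given as its limit. Planned counts for other T cell regulators and cell type markers needed mm9 gene models and were not run. Sequences are from RefSeq. Alternatives changed the overlap rule, score minimum, list length, B6 control, window width, loci and pileup scaling. Python 3.11.15, pandas 2.3.3 and SciPy 1.17.1 were used.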

Additional observations from a re-analysis of the deposited data

How the results depend on the processing

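Of 49 alternative values, 45 stayed within the interval, interquartile range or 1.5-fold limit of the reported value. With both acetylation lists at the length of the shorter, 75% of the floxed peaks left at the loci were shared. At a P score of at least 10 in every list, 100% of the Lck-Cre peaks were shared (9 of 9), and 1 floxed ZFAT peak was left, at Bcl11b. The median pileup ratio was 0.26 unscaled. Leaving out each locus in turn gave 26 to 32 floxed peaks, 31.2% to 40% shared and a median ratio of 0.42 to 0.43. Widening each window by 50 kb gave 39 floxed peaks, 33.3% of them shared, with 2 floxed ZFAT and 0 H3K9me3 peaks. The overlaps of ZFAT with floxed acetylation and with B6 ZFAT stayed at 0 under every alternative run for them. None of these alternatives could have changed them. The 2 floxed ZFAT peaks lay 9.68 and 133 kb from the nearest floxed acetylation peak. From the nearest B6 peak called against input they lay 75.8 and 176 kb away. These unchanged values count among the 45. ZFAT counts at these loci rest on 8 fragments or fewer per peak, which limits what they can show. No paired analysis was possible because each ChIP group had 1 library.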

Other observations

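Like those inside, acetylation peaks outside the windows were not assigned to any gene, and some were strong. The floxed peak at 32347824 to 32348973 of chromosome 9, 51.0 kb before the Ets1 window, had a fold of 29.9 and a P score of 154, above every peak inside the windows. In the RefSeq gene order of GRCm38.p6, the protein-coding neighbours of Ets1 are Fli1 and Kirrel3. The peak at 51912351 to 51913067 of chromosome 11, 117 kb before the Tcf7 window, had a fold of 20.5 and a P score of 104. The peak nearest to any window from outside lay 2.01 kb after that of Tcf7, at 52132010 to 52132162, with a fold of 9.54 and a P score of 16.3. By contrast, no floxed acetylation peak was called for 4620 kb after the Ikzf1 window or for 2946 kb before that of Gata3.

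Different places in the genome gave identical values. The Ets1 peak at 32479651 to 32479933 and the Myb peak at 20879470 to 20879859 share a fold of 11.2 and a P score of 38.3. Each has an inferred pileup of 48 over a background of 3.39 scaled fragments. Pileups are whole numbers, and the same pileup over the same background gives the same fold and P score.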
